A study of Drosophila melanogaster with 5 samples.

Results

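The cytosolic ribosomal protein genes of *Drosophila melanogaster* were followed in single cells of the pars intercerebralis (PI). Members were all genes whose FlyBase symbol begins with RpL or RpS, which includes the stalk genes written RpLP, together with *sta* (*stubarista*). The mitochondrial genes, written mRp, were left out. A further 2 members, FBgn0261606 and FBgn0260441, are ribosomal protein genes known here by identifier only. In all, 90 of the 17453 gene identifiers counted were members (0.516%), of which 51 carry a large-subunit symbol and 37 a small-subunit symbol. The annotation holds 93 symbols of this kind, and 88 matched a counted identifier. The identifiers of the other 5, *RpS10b*, *RpL27A*, *RpL31*, *RpL19* and *RpS12*, were not among those counted and are not analysed here.

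The PI is a dorsal brain region with neurosecretory neurons that act downstream of the circadian clock. The study drew single GFP-labeled cells into a pipette from flies in which kurs58-GAL4 drove UAS-mCD8::GFP or C767-GAL4 drove UAS-nlsGFP. Flies of both genotypes also carried Dilp2mCherry, a red label for insulin-producing cells. RNA of each cell passed through 3 rounds of antisense RNA amplification before sequencing. The study kept 4 cells, called PI cells 1 to 4, and discarded 1 for the way its reads mapped, whose values stand apart from the means below. The labels do not give which driver marked which cell, nor the sex or age of the flies. The labels give each cell its own animal number, whereas the series record speaks of 4 animals. There was no comparison group, and every SD is over PI cells 1 to 4, each of them 1 library.

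A ribosome joins a large and a small subunit, each made of ribosomal RNA and many small, mostly basic proteins. The small subunit reads the messenger RNA, and the large subunit joins the amino acids and carries the stalk, where translation factors dock. In most cells the proteins are needed in matched amounts, and their messenger RNAs are among the most abundant. Several fly ribosomal proteins are encoded by more than 1 gene, and in many such families one copy is used broadly and the other mainly in the germ line. Loss of 1 copy of many of these genes gives the Minute phenotype of short bristles and slow growth.

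Reads assigned to genes numbered 3915694, 3451331, 4077118 and 4441952 in PI cells 1 to 4 and 4913151 in the discarded cell. Expression is given as log2(RPM + 1), where RPM scales the reads of a gene to 1000000 reads assigned to genes, and a gene was called detected at 1 RPM or more. A gene without reads was limited to 3 reads, at most 0.869 RPM in a PI cell. The cells did not carry neuronal markers evenly. Of a list of 7 neuronal genes, 4, 7, 6 and 7 were detected in PI cells 1 to 4 and 7 in the discarded cell, with summed shares of reads of 0.02% to 0.17% against 0.72%. *elav*, the standard neuronal marker of the fly, had 1, 423, 88 and 361 reads in PI cells 1 to 4 and 3316 in the discarded cell. *Dh44*, a PI neuropeptide, took 538167 reads in cell 3, 436 to 761 in the other PI cells and 1871 in the discarded cell. *dimm*, a factor of peptidergic cells, had no read in any cell. The list of 6 peptidergic and PI genes that holds both took 13.6% of reads in cell 3. It took 0.02% to 0.07% in the other PI cells and 0.25% in the discarded cell.

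Ribosomal protein genes took a large part of the reads of every PI cell that was kept and far less of those of the discarded cell. Of the reads assigned to genes, cell 1 had 31.9% on these genes (Wilson 95% interval 31.85 to 31.95), cell 2 had 28.8% (28.79 to 28.89), cell 3 had 28.1% (28.05 to 28.13) and cell 4 had 23.9% (23.85 to 23.93). The discarded cell gave 4.42% (4.41 to 4.44). The mean of the PI cells was 28.2% ± 3.30 (SD, n = 4), and their shares were 5.40 to 7.21 times that of the discarded cell. With every uniquely mapped read as the denominator the shares were 19.8%, 17.8%, 19.0% and 13.7% in PI cells 1 to 4 and 2.59% in the discarded cell. The intervals cover counting error only and are far narrower than the spread between cells. The PI cells and the discarded cell did not overlap, but with 1 discarded cell no test was possible. The shares are relative, so fewer transcripts of these genes and more of other genes cannot be told apart.

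**Figure D1:**
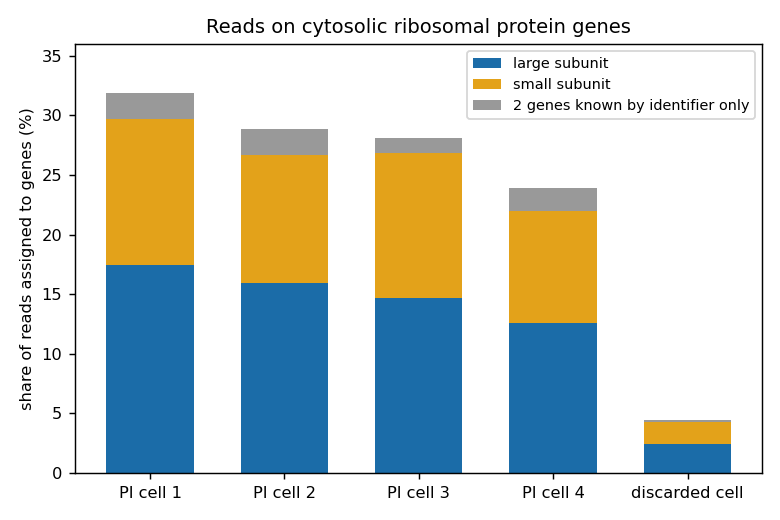
Share of reads assigned to genes (%, vertical axis) that fell on cytosolic ribosomal protein genes in PI cells 1 to 4 and the discarded cell, stacked by large subunit, small subunit and the 2 members without a symbol. The PI cells reached 23.9% to 31.9% and the discarded cell 4.42%.

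Both subunits contributed. Large-subunit genes took 17.4%, 15.9%, 14.7% and 12.6% of reads in PI cells 1 to 4 and 2.44% in the discarded cell. Small-subunit genes took 12.2%, 10.8%, 12.2% and 9.40%, and 1.80% in the discarded cell. The 2 members without a symbol are in neither sum and not in the ratio below. They took 2.21%, 2.14%, 1.24% and 1.90% in PI cells 1 to 4 and 0.18% in the discarded cell. The log2 ratio of small-subunit to large-subunit reads, which does not depend on the denominator, was −0.51, −0.56, −0.27 and −0.42, with a mean of −0.44 ± 0.13 (SD, n = 4). The discarded cell gave −0.44, inside the range of the PI cells. Thus the balance of the subunits in the discarded cell, by the members with a symbol, lay within the spread of the PI cells while the sum was far below it.

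Detection of these genes was close to complete in every cell. Of the 90 members, 80, 81, 81 and 81 were detected in PI cells 1 to 4 and 81 in the discarded cell, whereas 23.7%, 34.5%, 17.7%, 35.1% and 40.7% of all counted genes were. In all 4 PI cells together, 80 members (88.9%) were detected, against 11.3% of all genes. Only *RpLP0-like* was detected in some PI cells and not in others. The other 9 members (10% of members, against 49.3% of all genes) had no read in any PI cell. Members filled 48 to 56 of the 100 genes with most reads in a PI cell and 4 of the 100 in the discarded cell.

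The member with most reads over the PI cells was *RpL5*, which binds 5S ribosomal RNA (2L, 22532279 to 22536884, minus strand, BDGP6). It had 94106, 52475, 83115 and 57906 reads in PI cells 1 to 4 and 25627 in the discarded cell, a log2(RPM + 1) of 14.11 ± 0.40 in the PI cells and 12.35 in the discarded cell. In cell 1 it was the gene with most reads of all. *RpL41*, which encodes a very short basic peptide of the large subunit, followed with 52520, 70936, 59054 and 61005 reads (13.90 ± 0.29), and had 5206 in the discarded cell. The means of *RpL5* and *RpL41* differed by less than their spread, and their order turned in cells 2 and 4. FBgn0261606 came next with 54693, 50006, 26585 and 54737 reads (13.46 ± 0.54), its low value being that of cell 3.

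The rest of the 10 highest were *RpLP2* (13.27 ± 0.27), *RpS23* (13.27 ± 0.24), *RpS29* (13.11 ± 0.25), FBgn0260441 (12.74 ± 0.19), *RpL10* (12.72 ± 0.37), *RpS15Aa* (12.69 ± 0.66) and *RpL15* (12.61 ± 0.35). *RpS23* lies at the decoding center of the small subunit and *RpL10* near the site where peptide bonds form. Among these remaining genes of the 10, neighbours in the order differed by less than the SD of either, except *RpS29* and FBgn0260441. The order also depends on transcript length. Per kb of annotated exon, on the log2 scale, *RpL41* stood highest at 15.55, followed by *RpLP2* at 14.00 and *RpS23* at 13.48, and *RpL5* stood at 12.17. Amplification from the poly(A) tail favors the 3′ end, so the level per read and the level per length are both given. Over the 78 detected members with a position, Spearman's rho between the mean level and exon length was 0.03, as a description across genes.

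**Figure D2:**
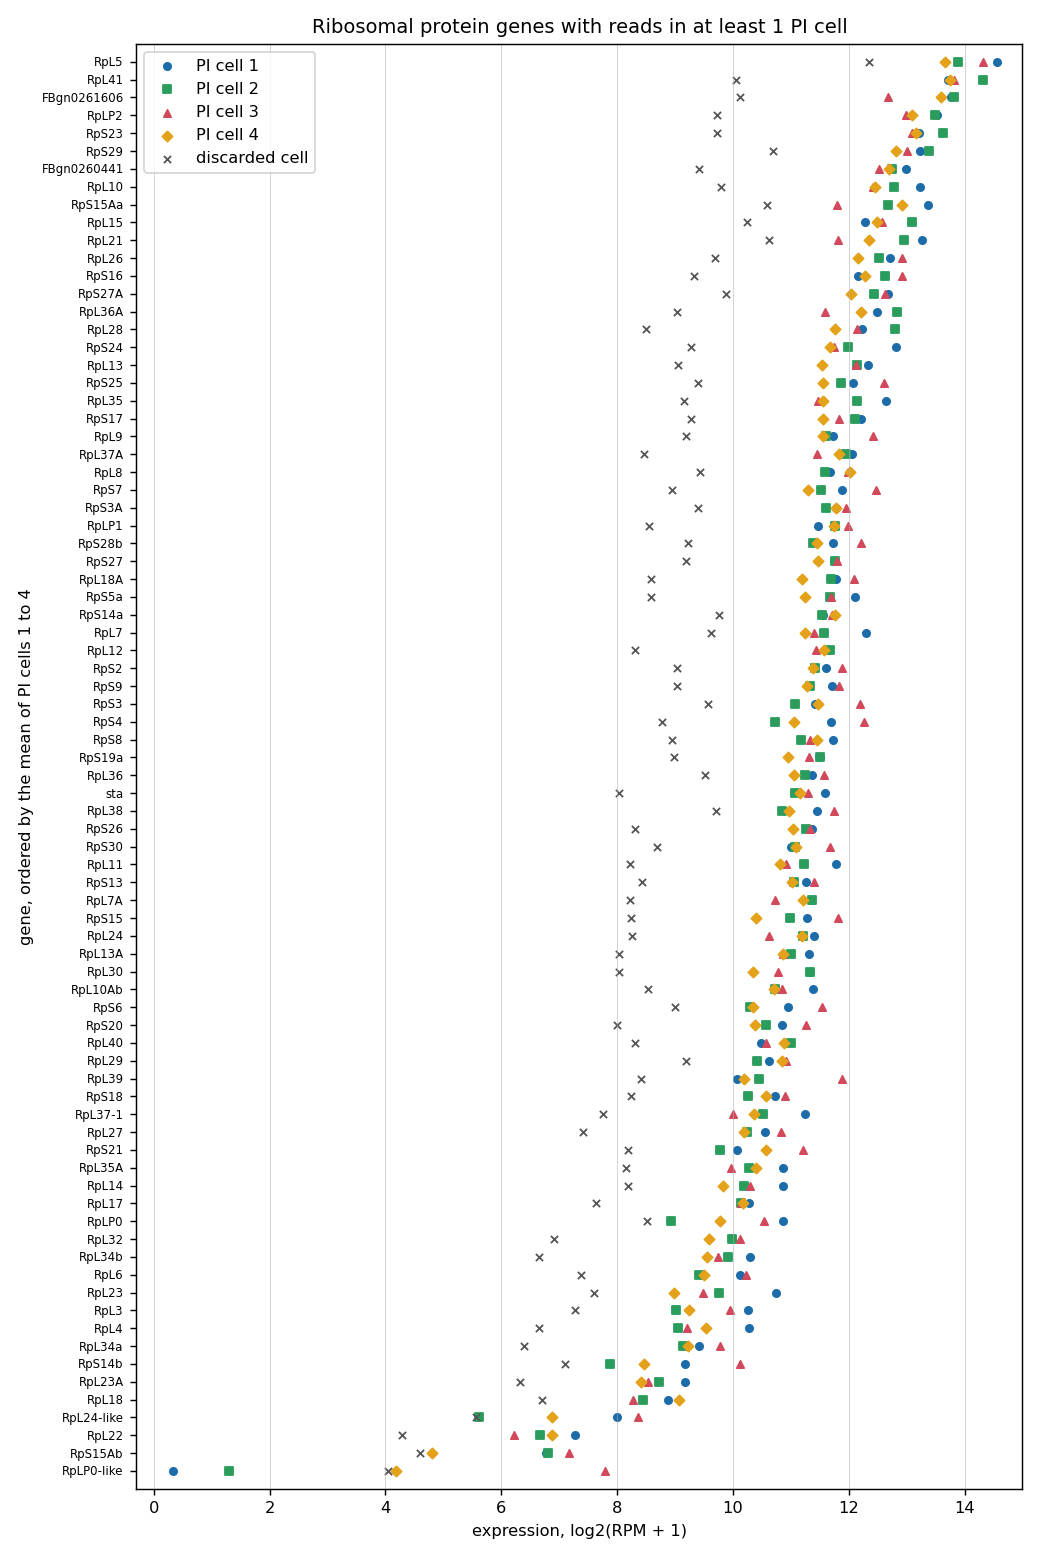
Expression as log2(RPM + 1) (horizontal axis) of members with reads in at least 1 PI cell (rows, ordered by the mean of PI cells 1 to 4), with a marker for each PI cell and a cross for the discarded cell. The cross lies below all 4 PI cells for every gene drawn except *RpLP0-like*.

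Most members stood close together in level. Of the 80 detected members, 67 had a mean of at least 10 on the log2(RPM + 1) scale, and the lowest was 6.39. The median over all 90 members was 11.40, 11.13, 11.37 and 11.05 in PI cells 1 to 4. Detected members on the chromosome arms had medians of the means from 10.61 on 3R to 11.68 on 2L, and the 14 on the X chromosome had a median of 11.30. *RpS3A*, the sole member on chromosome 4, stood at 11.78 ± 0.14. The 27 detected members with a small nucleolar RNA inside the gene, a common arrangement in this family, had a median of 11.28 and the 51 without one a median of 11.32.

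The stalk genes did not share a level. *RpLP0*, the base of the stalk, had 7279, 1679, 6019 and 3878 reads in PI cells 1 to 4 and 1791 in the discarded cell (10.86, 8.93, 10.53 and 9.77, and 8.51, on the log2 scale). *RpLP1* and *RpLP2* encode the acidic proteins that bind to it and recruit elongation factors. *RpLP1* had 11089, 11955, 16547 and 15297 reads and 1836 in the discarded cell, and *RpLP2* had 46037, 39695, 33146 and 38875 and 4151. The SD of *RpLP0* was 0.86, with cell 2 low, against 0.21 for *RpLP1* (mean 11.74) and 0.27 for *RpLP2*.

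Ribosomal proteins made as fusions to ubiquitin, which is cleaved off, were detected in every cell. *RpS27A* had 25686, 19179, 25882 and 18646 reads in PI cells 1 to 4 (12.45 ± 0.29) and 4612 in the discarded cell. *RpL40* had 5608, 7099, 6170 and 8379 reads (10.73 ± 0.25) and 1553. *sta*, the fly gene for the small-subunit protein SA (X, 1481797 to 1483413), had 12133, 7462, 10305 and 10142 reads (11.28 ± 0.23) and 1289 in the discarded cell. For each of these 3 genes the PI cells lay above the discarded cell without overlap.

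Members varied little from cell to cell for genes of these libraries. The SD over the PI cells had a median of 0.35 over the 80 detected members, on the log2 scale, and was below 0.5 in 59 of them. The other 1892 genes detected in all 4 PI cells had a median SD of 1.41. Among the 401 genes with a mean of at least 8, the 77 members had a median SD of 0.34 and the 324 others one of 0.88. These were not matched for level, as the median of the means was 11.44 for the members and 8.99 for the others. Of the 1892 other genes, 55 had an SD below the median of the members. The steadiest member was *RpL17*, which lines the exit tunnel, with 10.28, 10.14, 10.13 and 10.18 in PI cells 1 to 4 (SD 0.07). *RpL12* (0.11), *RpS14a* (0.11), *RpS3A* (0.14) and *RpS26* (0.15) followed. A single PI cell lay far from the other 3, by Dixon's ratio, in 3 of the 80 members, *RpS15Ab*, *RpS27* and *RpS30*, against 8.62% of the 1972 genes detected in all 4 PI cells. These calls depended on the scaling, since after centring on the median member 6 members were called and 0 of these 3 were among them.

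**Figure D3:**
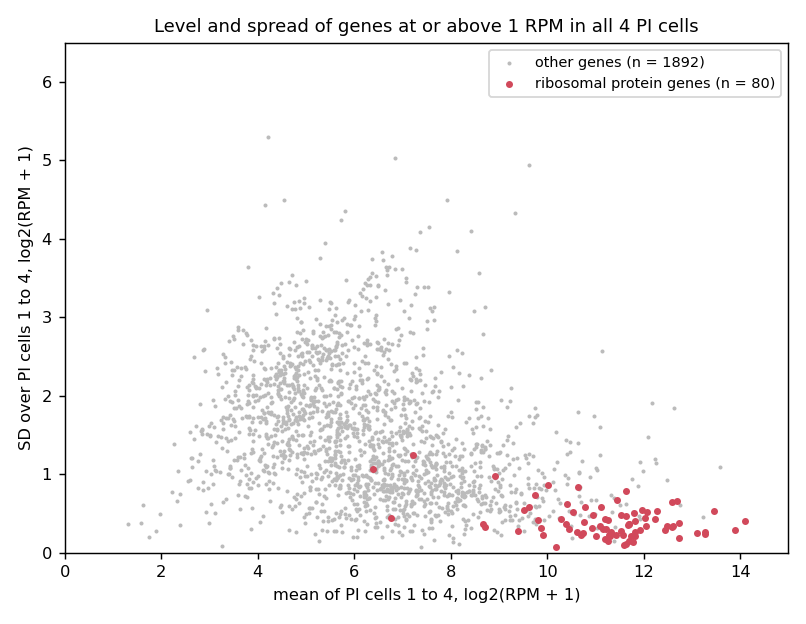
SD over PI cells 1 to 4 (vertical axis) against the mean (horizontal axis), both of log2(RPM + 1), for genes detected in all 4 PI cells, with a point for each gene, members in red and other genes in gray. The median SD was 0.35 for the 80 members and 1.41 for the 1892 other genes.

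Among the 80 members detected in all 4 PI cells, the least steady were mostly lesser copies and relatives. *RpL24-like* had the largest SD (1.24), then *RpS15Ab* (1.07), *RpS14b* (0.97), *RpLP0* (0.86) and *RpL39* (0.83). *RpL39*, a small protein of the exit tunnel, stood at 10.07, 10.45, 11.88 and 10.19, high in cell 3. Cell 3 was the highest PI cell for 19 of the 32 detected small-subunit genes and for 13 of the 46 large-subunit genes. Over all genes detected in the 4 PI cells it was highest in 28.1% and lowest in 41.8%, and among the 80 members it was highest in 32 and lowest in 20. Cell 1, with the largest share, was highest in 34 of the 80 members, and cell 4, with the smallest, was lowest in 33.

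The order of the members was much alike between cells. Spearman's rho over the 80 members was 0.955 for cells 1 and 2, 0.929 for cells 1 and 4 and 0.960 for cells 2 and 4. Cell 3 gave 0.815, 0.831 and 0.861 with cells 1, 2 and 4. The discarded cell gave 0.848, 0.828, 0.853 and 0.876 with cells 1 to 4. Over the 1892 other genes rho ranged from 0.288 to 0.790 between PI cells and from 0.249 to 0.450 with the discarded cell. Genes are the points of these correlations. They share gene length and amplification and do not replicate each other, and no test was made.

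Every member detected in the 4 PI cells was lower in the discarded cell. The discarded cell lay below the lowest PI cell in 80 of 80 members, against 25.5% of the 1972 genes detected in the 4 PI cells and 131 of the 324 other genes with a mean of at least 8 (40.4%). Detection and the mean of at least 8 were required in the PI cells only, which by itself favors lower values in the discarded cell. The sets were also not matched for level, since at a mean of at least 8 the median of the means was 11.44 for members and 8.99 for others. Without any filter the count was 80 of the 90 members (88.9%). Over all 17453 genes it was 3.35%, and 49.3% of these had no read in any PI cell. The difference of the discarded cell from the PI mean had a median of −2.60 over the members, on the log2 scale, and ran from −3.85 to −1.51. Over the 1972 genes its median was 0.19, and over the 324 others at a mean of at least 8 it was −0.66. *RpL41* (−3.85), *RpL28* (−3.73), *RpLP2* (−3.55), *RpS23* (−3.54) and *RpL37A* (−3.37) lay farthest below, and *RpLP0* (−1.51), *RpL29* (−1.51) and *RpL38* (−1.54) least.

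**Figure D4:**
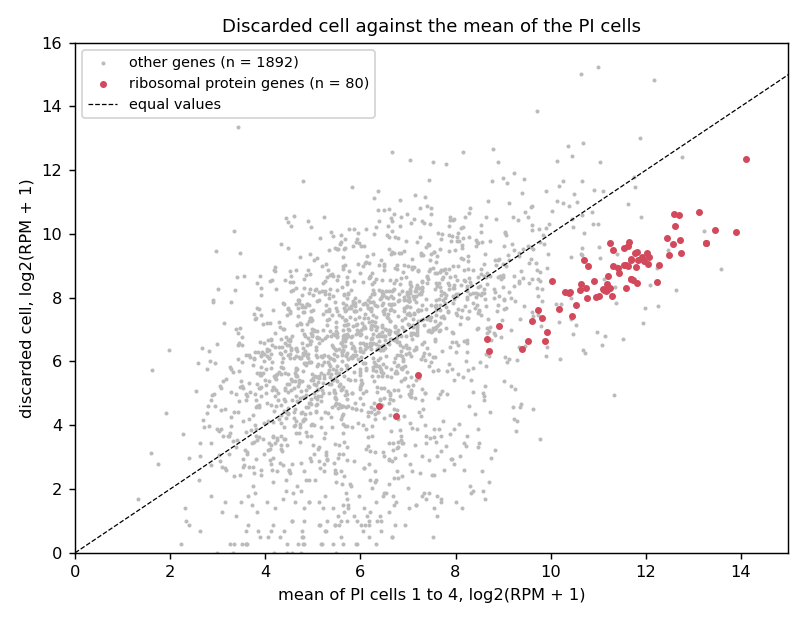
Expression in the discarded cell (vertical axis) against the mean of PI cells 1 to 4 (horizontal axis), both as log2(RPM + 1), for genes detected in all 4 PI cells, members in red and other genes in gray, with a dashed line of equal values. Each of the 80 members lies below the line, by −3.85 to −1.51, and the median difference over all 1972 genes is 0.19.

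The summed reads of the fat body list, the photoreceptor list and the hemocyte and muscle list were also lower in the discarded cell than in each PI cell. Those of the glial list were not. Gene by gene, 4 of 8 fat body, 5 of 8 photoreceptor, 6 of 8 hemocyte and muscle and 0 of 6 glial genes lay below every PI cell. Fat body genes (8 on the list) had 6, 6, 4 and 6 detected in PI cells 1 to 4 with 0.99% to 4.53% of reads, against 5 detected with 0.10% in the discarded cell. *Fst* and *Lsp1gamma* of that list had no read in any cell. All 8 photoreceptor genes were detected in each PI cell with 0.19% to 4.73% of reads, and 7 in the discarded cell with 0.13%. PI cells 1 to 4 had 31.9%, 28.8%, 28.1% and 23.9% of reads on ribosomal protein genes. Beside these, the photoreceptor shares were 1.43%, 1.67%, 0.19% and 4.73%, and the fat body shares 4.53%, 3.92%, 0.99% and 1.79%. The paper could not exclude that debris of other cells entered the pipette, and the source of these reads was not tested. *norpA* of the photoreceptor list stood at 9.58 in the discarded cell, within the range of the PI cells (2.44 to 10.91). Hemocyte and muscle genes (8) had 6 or 7 detected in the PI cells with 0.03% to 0.09%, against 6 with 0.0034%. Glial genes (6) had 4 or 5 detected with 0.08% to 0.50% in the PI cells, among which *repo* had no read in cells 2 and 3, and 6 detected with 0.17% in the discarded cell, within the range of the PI cells. Reads that mapped to multiple places were 7.46% to 23.0% in the PI cells and 3.51% in the discarded cell. The part of these in the result was not tested.

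Other genes of protein synthesis were read from lists. Of 5 elongation factor genes, 4 were detected in all 4 PI cells, the median of the means was 10.52, and 3 were below every PI cell in the discarded cell. *eEF2*, which moves the ribosome along the messenger RNA, stood at 11.55, 10.87, 11.04 and 11.03 in the PI cells and 8.59 in the discarded cell. *eEF1alpha2*, an isoform of the factor that brings transfer RNA, ran the opposite way with 594, 807, 2783 and 4542 reads in PI cells 1 to 4 and 7303 in the discarded cell. All 4 ribosome-associated genes were detected, with a median of 9.73. Of these, *Rack1*, a scaffold on the small subunit, stood at 10.38, 9.35, 9.30 and 9.50, and 7.41 in the discarded cell.

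Initiation factors were lower and less even. Of 26 such genes, 24 were detected in all 4 PI cells with a median of the means of 6.77 and a median SD of 1.21, and 6 were below every PI cell in the discarded cell. The poly(A)-binding protein gene *pAbp* was the highest among them at 11.89 ± 0.47. Of 19 genes listed for ribosome biogenesis, 4 were detected in all 4 PI cells (median 3.15). Among these 4 was *eRF1*, which encodes the release factor of translation rather than a biogenesis factor. The 71 mitochondrial ribosomal protein genes had the lowest median of these lists, with 6 detected in all 4 PI cells (8.45%), a median of 1.67 and a median SD of 2.03. They took 0.21%, 0.10%, 0.06% and 0.13% of reads in the PI cells and 0.19% in the discarded cell, where 67 of the 71 were detected. The median difference of the discarded cell from the PI mean was −2.54 for the elongation genes, −1.97 for the ribosome-associated genes, −0.34 for the initiation genes, 0.41 for the biogenesis genes and 1.96 for the mitochondrial genes. No test was made on any of these lists.

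Where a ribosomal protein has more than 1 gene, the PI cells used mainly one of them in most families. In 5 families both partners had reads. The ratio within a cell was tested with an exact sign-flip permutation test over the 4 PI cells, two-sided, which cannot give a p below 0.125. None of the 5 families could therefore pass 0.05.

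*RpS15Aa* on the X chromosome had 41373, 22666, 14447 and 34279 reads in PI cells 1 to 4, and *RpS15Ab* on 2R, whose annotated exon fills its whole span, had 424, 381, 584 and 120. The ratio was 97.6, 59.5, 24.7 and 286 in the PI cells and 66.2 in the discarded cell, and the mean log2 difference was 6.30 ± 1.45 (higher in 4 of 4 cells, exact permutation p = 0.125, Benjamini-Hochberg adjusted 0.156). Cell 4 was the cell with fewest *RpS15Ab* reads. Adding the reads that could be placed on either gene brought the mean difference to 4.40, with the same order.

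*RpS14a* and *RpS14b* are neighbours on the X chromosome, at 7933742 to 7934677 and 7934898 to 7935792. *RpS14a* had 11824, 10278, 13621 and 15431 reads and *RpS14b* 2266, 804, 4569 and 1573. *RpS14b* thus gave 16.1%, 7.26%, 25.1% and 9.25% of the reads of both in PI cells 1 to 4 and 13.7% in the discarded cell, and the log2 difference was 2.73 ± 0.94 (*RpS14a* higher in 4 of 4 cells, exact permutation p = 0.125, adjusted 0.156). The difference kept its sign per kb of exon, at 3.55, 8.70, 2.03 and 6.68 times. The share of *RpS14b* was highest in cell 3.

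*RpL34b* and *RpL34a*, both on 3R, came closest to equal use. *RpL34b* had 4917, 3341, 3479 and 3324 reads and *RpL34a* 2658, 1939, 3563 and 2668. The ratio was 1.85, 1.72, 0.976 and 1.25 in PI cells 1 to 4 and 1.19 in the discarded cell. The mean log2 difference of 0.49 ± 0.43 (*RpL34b* higher in 3 of 4 cells, exact permutation p = 0.25, adjusted 0.25) was close to the spread between cells. Per kb of exon the ratio was 1.24, 1.15, 0.654 and 0.835, so that neither gene was ahead in every cell.

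Members named -like with reads belong to a different kind of relative, since in yeast the proteins most like RpL24-like and RpLP0-like are assembly factors of the large subunit rather than parts of the mature ribosome. *RpL24* had 10616, 8144, 6404 and 10342 reads and *RpL24-like* 1001, 165, 1342 and 518, a ratio of 10.6, 49.4, 4.77 and 19.97 in the PI cells and 6.58 in the discarded cell. The mean log2 difference was 3.89 ± 1.42 (higher in 4 of 4 cells, exact permutation p = 0.125, adjusted 0.156). *RpLP0-like* had 1, 5, 903 and 76 reads in PI cells 1 to 4 and 76 in the discarded cell, and *RpLP0* was above it in 4 of 4 cells by 6.62 ± 3.29 (exact permutation p = 0.125, adjusted 0.156). Both genes had most reads in cell 3 among the PI cells.

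**Figure D5:**
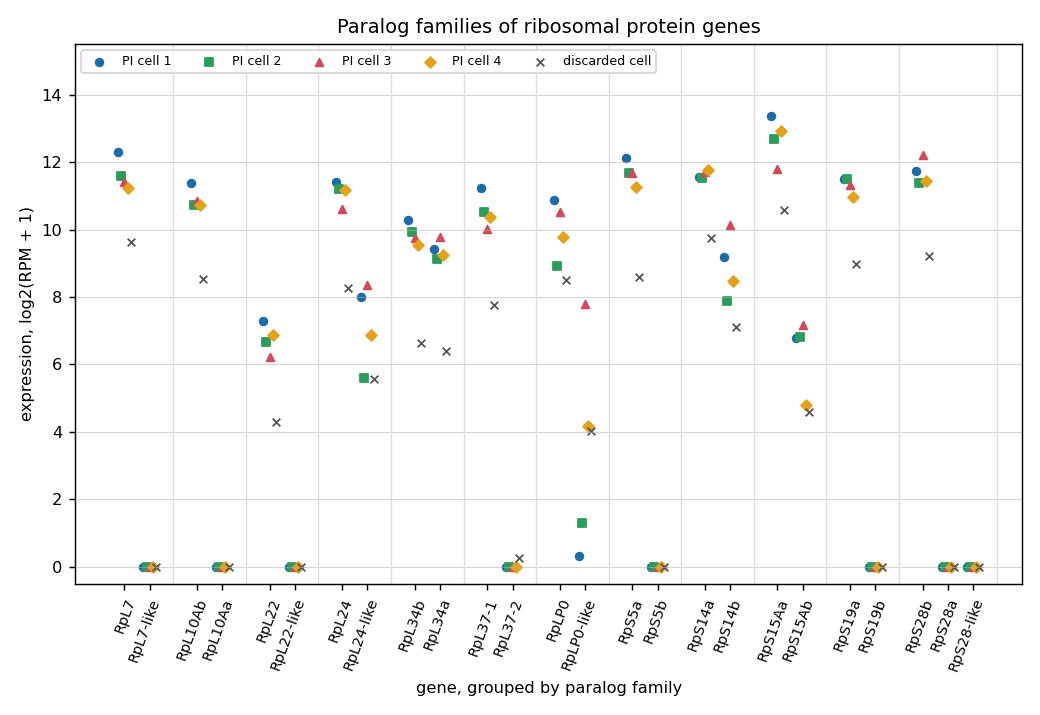
Expression as log2(RPM + 1) (vertical axis) of the partners of each paralog family (horizontal axis), with a marker for each PI cell and a cross for the discarded cell. In 7 families the partner sits at 0 in all 4 PI cells while the main gene lies at 6.22 or higher.

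In 7 families one partner had no read in any PI cell, among them *RpL7-like*, the partner of *RpL7*, for which no bound is given. Against the limit of 3 reads per library, *RpS5a* was at least 3599-fold higher than *RpS5b* in each PI cell, *RpS28b* at least 3076-fold higher than each of *RpS28a* and *RpS28-like*, *RpS19a* at least 2931-fold higher than *RpS19b*, *RpL10Ab* at least 1953-fold higher than *RpL10Aa*, *RpL37-1* at least 1393-fold higher than *RpL37-2*, and *RpL22* at least 99.7-fold higher than *RpL22-like*. These bounds are on reads and cover counting error only, not transcripts of a single cell lost before sequencing. *RpS5b*, *RpS19b* and *RpL22-like* are known in the fly for expression in the germ line. The discarded cell held 1 read of *RpL37-2* and none of the other genes of this kind. *RpS10a* also had no read in any cell, and its partner *RpS10b* is among the symbols whose annotated identifier was not counted. Of the 9 members without reads in the PI cells, 5 lie on 3R, 2 on 2R and 2 on 2L, against 23, 19 and 18 of the 88 members with a position. Of the 8 with a partner counted here, 6 have that partner on the X chromosome, where 14 of the 88 members with a position lie. *RpS28b* enters that count as the partner of both *RpS28a* and *RpS28-like*. In 4 of the 9 (*RpL10Aa*, *RpL37-2*, *RpS10a* and *RpS28a*) the annotated exon fills the whole span of the gene, as it does in 6 of all members with a position.

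The zero of *RpL7-like* rests on how reads were counted. In a second deposited count, made with MMQuant, a read that could belong to several genes is given to the group of those genes. In that count *RpL7-like* shared 179, 213, 1034 and 573 reads in PI cells 1 to 4 and 76 in the discarded cell with the overlapping gene CG34164, and had no read of its own, so that its level is uncertain. The other 8 members without reads had none in the PI cells by MMQuant either, alone or shared.

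*RpL22*, whose protein has an extended tail in flies, differed widely between the counts. It had 602, 346, 299 and 517 reads in PI cells 1 to 4 and 91 in the discarded cell in the main count (6.76 ± 0.44, 79th of the 80 detected members). MMQuant gave it 10156, 6906, 10205 and 11034 reads of its own and 2162 in the discarded cell (10.97 ± 0.28), and a further 18676, 15788, 17361 and 20152 reads and 3880 that it shared with lncRNA:CR42491. With those added it stood at 12.50 ± 0.16. The rank of *RpL22* among the members thus depended on the count used, and its level is uncertain.

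Another 4 members had over 10% of their MMQuant reads in a shared group. *RpS9* shared reads with asRNA:CR45874 and went from 11.54 in the main count to 12.15 by MMQuant alone and 12.50 with shared reads. *RpL23A* shared reads with Uhg7, a host gene of small nucleolar RNAs, and went from 8.71 to 9.83 and 10.10. *RpS15Ab* went from 6.39 to 6.14 alone and 8.08 with the reads it shared with *RpS15Aa*, and *RpS14b* from 8.91 to 8.55 and 8.80. Over all 80 detected members the change from the main count to MMQuant alone had a median of −0.26. It exceeded 1 in 2 members only, *RpL22* and *RpL23A*, and lay within 0.5 of that median in 76. The lowest of the remaining members in the main count, *RpL18*, stood at 8.67 ± 0.37.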

How the data were processed

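RNA of 5 single GFP-labeled PI cells was sequenced after amplification. The authors trimmed the reads (Trim Galore, per the submitters' processing notes), mapped them to dm6 with STAR and the BDGP6 annotation, release 87, and deposited counts of reads per gene as whole numbers, without normalization. Only uniquely mapped reads are counted, so near-identical copies can lose reads. A second set of counts deposited by the authors came from MMQuant, which assigns reads of several genes to the group. The 4 totals of unassigned reads in each table stayed out of the library sizes.

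RPM was computed over reads assigned to genes, and expression as log2(RPM + 1), with detection at 1 RPM, as in the study's methods. The main count ignores strand. Of 17453 identifiers, 17179 matched a symbol in Ensembl release 115 (BDGP6.54), which also gave positions, exon lengths and small nucleolar RNAs inside genes. Wilson 95% intervals, Spearman's rho and an exact sign-flip test over cells 1 to 4 for 5 paralog families, with Benjamini-Hochberg adjustment, were computed with scipy 1.17.1, pandas 2.3.3 and numpy 2.4.6 under Python 3.11.15, and matplotlib 3.10.9 drew the plots. Scripts were tested on simulated data. Cells are separate libraries with no second measurement, so the spread between them holds both cell differences and technical error.

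Members to be named were paralog families, stalk genes, ubiquitin fusions, *sta*, the 10 highest and 10 lowest by mean level, those below 1 RPM in any PI cell, the 5 with the smallest and the 5 with the largest SD, those with over 10% of MMQuant reads shared, and those with 1 cell far from the others. *RpL28*, *RpL37A*, *RpL29* and *RpL38* were named after their values were seen. The members and the lists of translation and marker genes were chosen with earlier results of these data known. From those lists *eEF1alpha1*, *eEF5*, CG7637, *Nob1*, *Rio1*, *Rio2*, *para* and *Phm* matched no counted identifier by their symbols in release 115. Such genes may still have been counted under another identifier, since the paper gives values for *para* in these cells. Alternatives were a denominator of every uniquely mapped read, genes outside the mitochondrial genome only, summed stranded counts, MMQuant counts alone and with shared reads, thinning to the shallowest PI cell, thresholds of 10 RPM, 100 RPM and 1 read, a pseudocount of 0.1 RPM, leaving out lesser partners and -like genes, all 5 cells, each PI cell left out in turn, and, chosen after seeing the data, centring on the median gene or the median member. Sequences of promoters and proteins were not used here. A member that enters the counts is not reported by name here.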

Additional observations from a re-analysis of the deposited data

Results flagged for a closer look

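A PI cell was singled out where its gap to the nearest of the other 3, divided by the range of the 4, was above Dixon's 95% critical value, which chance alone gives in about 1 in 20 groups. Among the 80 detected members this held for 3 (3.75%), against 8.62% of the 1972 genes detected in all 4 PI cells. With values centred on the median of the detected members in each cell, 6 members were called instead (FBgn0260441, *RpL24*, *RpL28*, *RpLP1*, *RpS26* and *RpS27A*), and 0 members were called under both scalings. *RpS15Ab* was low in cell 4, at a log2(RPM + 1) of 4.81 beside 6.77, 6.80 and 7.17 in cells 1 to 3. *RpS27*, a zinc-binding protein of the small subunit, was low in cell 4 at 11.46 beside 11.74, 11.76 and 11.80, a gap well below 1. *RpS30*, made as a fusion to a ubiquitin-like protein, was high in cell 3 at 11.67 beside 11.01, 11.08 and 11.09 in cells 1, 2 and 4.

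The other values of this kind were all in cell 3. The peptidergic and PI genes took 13.6% of its reads, most of them from *Dh44*, and 0.02% to 0.07% of those of the other PI cells. Among the translation genes, *eEF1delta*, of the exchange factor for eEF1alpha, stood at 0.32 in cell 3 and at 8.89 or more in the others. *eIF3e* had 0 reads in cell 3 and stood at 6.42 or more in the others, *eIF3j* stood at 1.31 in cell 3 and at 7.12 or more in the others, and *eIF3k* at 1.57 and at 7.11 or more. *eIF4B* stood at 4.28 in cell 3 and at 7.78 or more in the others. Of the 13 genes of the list for eIF3, which holds the small subunit ready for messenger RNA, 3 were below 2 on the log2 scale in cell 3. Cell 3 had the fewest detected genes of the PI cells, 3097 (17.7% of all genes). It was the lowest PI cell in 41.8% of the 1972 genes detected in all 4. The part of this in the values above was not tested.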

How the results depend on the processing

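Of 373 values under alternatives, 347 stayed within the limits set and 26 moved. The limit was 1 SD, or 1.5 times for a count or a median SD. For mean paralog differences it was the sign only. With shared reads the mean difference of *RpS15Aa* and *RpS15Ab* was thus not counted as moved. It went from 6.30 to 4.40, a change larger than its SD of 1.45. The one direction that turned was that of *RpL34b* against *RpL34a* in cell 3. It went from −0.03 to 0.0038 by MMQuant alone and with shared reads, a change within the SD. With a denominator of every uniquely mapped read, the share of reads on members was 19.8%, 17.8%, 19.0% and 13.7% in PI cells 1 to 4, and the median log2(RPM + 1) over members was 10.71, 10.43, 10.81 and 10.25, and 7.74 in the discarded cell, whose share went from 4.42% to 2.59%. By MMQuant reads alone the share was 26.6% in cell 1 and 21.8% in cell 2, and the median 11.11 and 10.70. With shared reads added the share was 27.3% and 22.3%, and the median 11.13 and 10.78. Without lesser partners and -like genes (77 members) the median was 11.60, 11.33 and 11.57 in cells 1 to 3 and 8.78 in the discarded cell. With shared reads the difference of *RpS15Aa* and *RpS15Ab* was 4.48, 4.27 and 4.88 in cells 1, 2 and 4 and 4.27 in the discarded cell. After centring on the median member, 6 members instead of 3 had a PI cell far from the others. By MMQuant *RpL34b* was above *RpL34a* in all 4 PI cells (mean 0.53, exact permutation p = 0.125). The discarded cell was below every PI cell in 79 of 80 members by summed stranded counts and by MMQuant alone.

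Leaving out each PI cell in turn gave 80 to 81 members detected in all remaining PI cells, a median SD of 0.31 to 0.40 for members and 1.06 to 1.47 for other genes, and paralog differences of 3.32 to 4.44 for *RpL24*, 0.36 to 0.66 for *RpL34b*, 5.32 to 7.92 for *RpLP0*, 2.42 to 3.11 for *RpS14a* and 5.70 to 6.86 for *RpS15Aa*. No gene of the mitochondrial genome was among the counted identifiers, so that alternative changed nothing. No pairing between conditions was possible because the cells form 1 group without a second condition. The only pairing was that of paralog partners within a cell.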
